A study of Mus musculus with 17 samples.

Results

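LIN28B and 6 related fetal genes were followed through 17 RNA sequencing libraries of mouse fetal liver cells. The genes are Lin28a, Lin28b, Hmga1, Hmga2, Igf2bp1, Igf2bp2 and Igf2bp3. They were chosen by name, as RNA-binding and chromatin factors of fetal cells, with earlier results of these data known. Because of this choice, the shares of all genes set beside them below are descriptions and not tests. The 7 are among the 46880 genes listed in all 3 deposited count tables. All groups share the developmental stage, E12.5 to E13.5, and a B6J.129(Cg) strain in which the CAG promoter drives Cas9 and EGFP from Gt(ROSA)26Sor.

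The WT group (n = 3) carried the guide sgLuc and the hairpin shLuc, both against luciferase, and received no doxycycline. The other groups carried the guide sgGata1 and are called Gata1s cells in the labels, after the shorter protein made from Gata1, a transcription factor gene of red cells and megakaryocytes. With doxycycline at 1 µg/mL for 48 h there was a LUC group (a luciferase control, n = 3) and a group labelled Arid3a (n = 3). With the same dose for 10 days there was a control hairpin, sh-ctrl (n = 3), a hairpin against Arid3a, shArid3a (n = 2, numbered 1 and 3), and the microRNA miR-125b (n = 3). The labels do not say whether replicates were separate embryos or cultures, so p-values measure only the spread between these libraries. They also do not say which promoters drive the transgenes, whether embryos were pooled, or which share of the cells was edited. Counts per gene cannot tell the short from the full form of Gata1.

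LIN28A and LIN28B are RNA-binding proteins that bind precursors of the let-7 microRNAs and keep them from maturing. Mature let-7 in turn represses mRNAs with matching sites, among them those of LIN28 itself, of the chromatin protein HMGA2 and of IGF2BP proteins, which bind and stabilise other mRNAs. In blood formation, Lin28b and Hmga2 are known as fetal factors whose levels decline towards adult life, while let-7 activity rises. The microRNA miR-125b is reported to repress Lin28b in blood cells, and the comparisons below ask how its transgene, and hairpin or transgene of Arid3a, changed the 7 genes.

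The seeds of miR-125b and let-7 and their matches in these genes are shown first, so that they can be set beside the values. Whether the matches bear on the differences between groups was not tested. Mature sequences are those of RefSeq (GRCm38.p6), with the seed (bases 2 to 8) in capitals. The seed CCCUGAG is shared by miR-125a and miR-125b. The seed GAGGUAG is shared by 10 mature names of the let-7 family, and only let-7j among those listed has another, GAGGUAU.
miR-125b-5p: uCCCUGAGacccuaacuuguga
let-7a-5p: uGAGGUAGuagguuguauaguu

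Matches to the seeds were searched in the longest annotated 3′ untranslated region (UTR) of each gene (GENCODE M21, GRCm38), on the transcribed strand only, because a microRNA pairs with the mRNA. An 8mer is CTCAGGGA for miR-125b or CTACCTCA for let-7, a 7mer-m8 is CTCAGGG or CTACCTC, and a 7mer-A1 is TCAGGGA or TACCTCA. Each match was counted once, in the longest class it fills. The windows below end with the match, which is in capitals, and all lie on the minus strand. The first 4 are the matches to miR-125b, and the last 3 are the let-7 8mers nearest to the stop codon in Lin28b, Hmga2 and Igf2bp3.
Lin28b, miR-125b 8mer, chr10:45378798-45378827: atgctcaggacaaagaactttgCTCAGGGA
Lin28a, miR-125b 8mer, chr4:134005301-134005330: tgttctcaggtacatgagcaatCTCAGGGA
Igf2bp3, miR-125b 7mer-m8, chr6:49085532-49085561: gtgaccggctctcctgcttgggtCTCAGGG
Hmga2, miR-125b 7mer-A1, chr10:120362012-120362041: aaccatgtctcttccagctgtttTCAGGGA
Lin28b, let-7 8mer, chr10:45381022-45381051: tcccttcacccgggcgggaagtCTACCTCA
Hmga2, let-7 8mer, chr10:120364224-120364253: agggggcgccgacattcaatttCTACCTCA
Igf2bp3, let-7 8mer, chr6:49086787-49086816: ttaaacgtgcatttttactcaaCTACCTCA

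All 7 genes held at least 1 match to the let-7 seed, where 14.9% of 20746 annotated UTRs held one. That share is not matched for length: the median of all UTRs was 964.5 nt, and the 7 genes had 1183 to 6337 nt. Among UTRs of like length, the share with a match ran from 12.987% for Hmga1 to 54.393% for Igf2bp1. Hmga2 had 7 matches in 3014 nt, a number reached by 0.181% of 1104 UTRs of like length (within 10%). Lin28b had 5 in 4445 nt (0.666% of 601 such UTRs) and Igf2bp1 had 5 in 6337 nt (0.837% of 239). Lin28a and Igf2bp2 had 2 each, and Hmga1 and Igf2bp3 had 1. Several of these genes are well known let-7 targets, so this count describes the choice of genes.

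Matches to miR-125b were fewer. Lin28a and Lin28b each had 1 8mer, which 4.62% of all UTRs and 10.2% of UTRs as long as that of Lin28b held. Igf2bp3 had 1 7mer-m8 and Hmga2 1 7mer-A1, where 19.6% of all UTRs had a match of any class. Among UTRs of like length, 31.3% had one for Igf2bp3 and 39.5% for Hmga2. Hmga1, Igf2bp1 and Igf2bp2 had none of these letters in the UTR searched. A match is a description of the sequence and not a measured site.

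**Figure D1:**
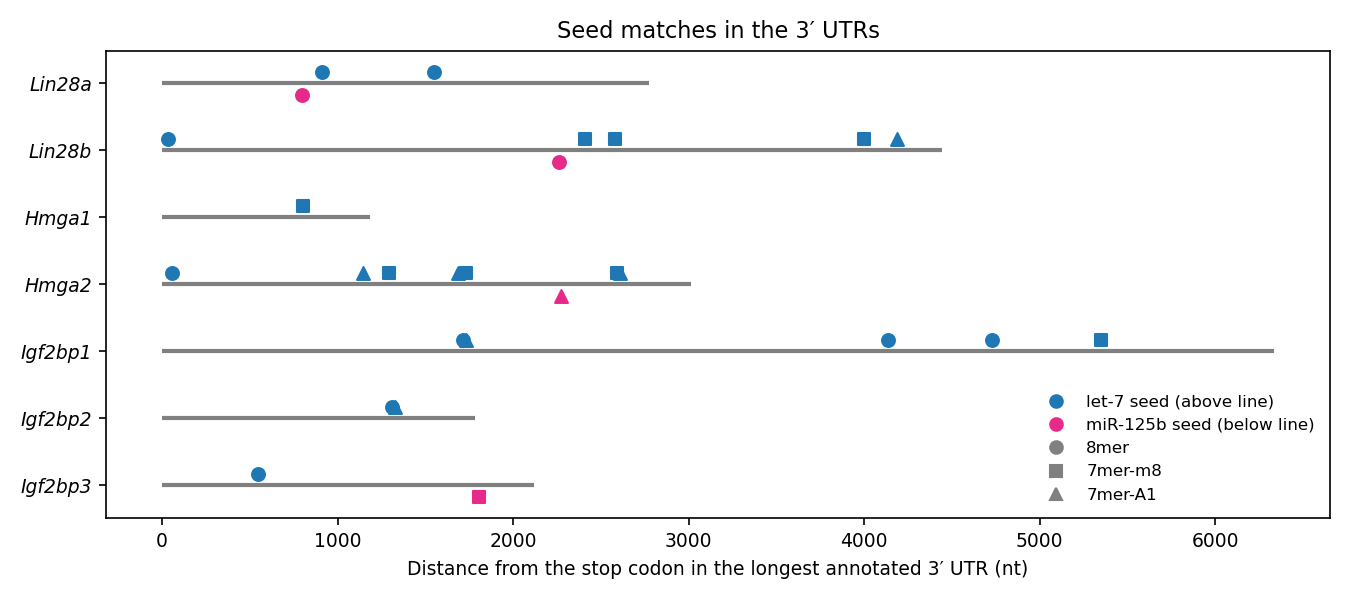
Seed matches along the longest annotated 3′ UTR of each gene (grey lines, x axis in nucleotides from the stop codon); let-7 matches are above the line and miR-125b matches below it, with the class given by the shape. Hmga2 carries 7 let-7 matches, and the miR-125b matches lie in Lin28a, Lin28b, Hmga2 and Igf2bp3.

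Library totals were 31339238 to 38678649 counts for the LUC and Arid3a table, 31992089 to 40859301 for the 10-day table and 16362439 to 19212193 for WT. Counts of 0 therefore leave a floor of 3 counts, and floors and intervals on counts cover counting error only. Levels across groups are CPM, that is, counts scaled to the total of the library. Arid3a was at 275 CPM in WT, 66.2 in LUC, 71.9 in the libraries labelled Arid3a, 57.6 in sh-ctrl, 18.7 in shArid3a and 8.60 in miR-125b, so the libraries labelled Arid3a showed no rise of that gene over LUC beyond the spread (log2 fold change 0.08, edgeR adjusted p-value 0.737). Gata1, the target of the guide, was at 75.6 CPM in WT and between 283 and 471 in the Gata1s group means. It was called in none of the 4 comparisons described below (edgeR adjusted p-values 0.162 to 0.736). WT and Gata1s libraries differed in marker genes. The sum of 12 myeloid and mast cell markers was 12002 to 13916 CPM in WT and 11.8 to 304 in the other libraries, with Mpo at 3991 CPM in WT and at most 39 in a Gata1s group mean. The sum of 10 megakaryocyte markers was 1054 to 1309 CPM in WT and 2471 to 4703 elsewhere. Hepatoblast markers summed to at most 23.5 CPM in any library, and the mean of Alb, which encodes albumin, was at most 0.07 CPM in any group, although the cells are labelled as fetal liver cells. In bulk RNA, fewer cells of a type and less RNA per cell cannot be told apart.

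Across the 6 groups the genes showed 2 patterns. Lin28a, Hmga2, Igf2bp1 and Igf2bp2 were read in WT and were at or near 0 in every Gata1s group, while Lin28b, Igf2bp3 and Hmga1 were read in all 17 libraries. Of the 7 genes, 4 were at 1 CPM or more in WT and under 1 CPM in each Gata1s group, against 10.6% of the 12884 genes that reach 1 CPM in WT. The highest group mean was in WT for 5 genes, which adds Igf2bp3, and for 10251 of all 46880 genes, read or not. Genes without reads in WT could not be highest there, so these 2 shares are not like for like. WT differed from the other groups in guide, second transgene, doxycycline and table at once, so these cannot be told apart and no test was made. The myeloid markers given above moved with the same split, and their part in these levels was not tested.

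Lin28a (ENSMUSG00000050966, chromosome 4, 134003330 to 134018841, minus strand), the paralog best known from stem cells, was at 17.7, 16.8 and 16.9 CPM in the WT libraries. It had 6 counts in 1 LUC library, 1 count in 1 shArid3a library and 0 in the other 12 Gata1s libraries. The highest Gata1s library, in LUC, was at 0.191 CPM. The WT level was 298-fold that of LUC (95% counting interval 137 to 815) and at least 598-fold higher than in the libraries labelled Arid3a, where 0 counts were set to the floor over the group.

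Hmga2 (ENSMUSG00000056758, chromosome 10, 120361275 to 120476469, minus strand) encodes a chromatin protein that bends AT-rich DNA and is a classic let-7 target. It was at 152, 180 and 194 CPM in WT. Group sums in Gata1s cells were 23 counts in LUC, 16 in the libraries labelled Arid3a, 6 in sh-ctrl, 1 in shArid3a and 4 in miR-125b. WT was 804-fold above LUC (counting interval 536 to 1269) and 2990-fold above sh-ctrl (1373 to 8150). The ranges of the 5 Gata1s groups overlapped from each group to the next in the order of means.

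Igf2bp1 (ENSMUSG00000013415, chromosome 11, 95957163 to 96005940, minus strand), which encodes an mRNA-binding protein of embryonic tissue, was at 19.7, 22.4 and 23.7 CPM in WT. It had 3 counts in 1 sh-ctrl library and 0 in the other 13 Gata1s libraries. WT was at least 768-fold higher than LUC and at least 829-fold higher than miR-125b, with the floor over each group. Igf2bp2 (ENSMUSG00000033581, chromosome 16, 22059009 to 22163299, minus strand), a paralog that persists in some adult tissues, was at 46.0, 65.8 and 61.8 CPM in WT. It reached 17 and 9 counts in libraries 1 and 3 labelled Arid3a and at most 2 counts in any other Gata1s library. WT was 227-fold above the libraries labelled Arid3a (counting interval 155 to 344).

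Lin28b (ENSMUSG00000063804, chromosome 10, 45376620 to 45486395, minus strand) overlaps no other annotated gene. Its levels were 38.9, 52.6 and 55.0 CPM in WT, 73.0, 60.9 and 56.5 in LUC, and 47.9, 87.2 and 83.7 in the libraries labelled Arid3a. At 10 days they were 23.6, 44.6 and 43.6 CPM in sh-ctrl, 31.3 and 32.4 in shArid3a, and 10.8, 16.9 and 10.3 in miR-125b. In the order of group means (Arid3a, LUC, WT, sh-ctrl, shArid3a, miR-125b), neighbouring ranges overlapped except between LUC and WT and between shArid3a and miR-125b. The miR-125b libraries were the lowest 3 of the 17.

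Igf2bp3 (ENSMUSG00000029814, chromosome 6, 49085223 to 49214957, minus strand), the fetal paralog of the IGF2BP family best known from blood progenitors and leukaemia, was at 66.6, 95.3 and 92.0 CPM in WT. It was at 54.2, 59.4 and 58.5 CPM in LUC and at 56.4, 63.2 and 63.8 in the libraries labelled Arid3a. At 10 days it was at 32.8, 31.3 and 30.7 CPM in sh-ctrl, 33.5 and 17.6 in shArid3a, and 15.2, 11.4 and 8.05 in miR-125b. The WT libraries were the highest 3 and the miR-125b libraries the lowest 3. Malsu1 and a pseudogene lie over Igf2bp3 on the other strand, and the use of strand in counting is not given in the sources used here.

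Both genes were lower in the 10-day control than in the 48 h control, with 23.6 to 44.6 CPM against 56.5 to 73.0 for Lin28b and 30.7 to 32.8 against 54.2 to 59.4 for Igf2bp3. These controls differ in construct, doxycycline time and table, which cannot be told apart, and the difference was not tested. The log2 ratio of Lin28b to Igf2bp3 counts within a library, which does not depend on scaling, was −0.79 ± 0.06 (SD, n = 3) in WT. Its means in the Gata1s groups lay between 0.14 and 0.39, and no Gata1s library fell into the WT range of −0.86 to −0.74 (lowest −0.49).

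Hmga1 (ENSMUSG00000046711, chromosome 17, 27556497 to 27563674, plus strand), which encodes the HMGA protein of proliferating cells, ran the other way. It was at 581, 548 and 525 CPM in WT, below every Gata1s library (745 to 1234 CPM). LUC was highest, with 1113, 1231 and 1234 CPM, and did not overlap miR-125b, the next group, at 959 to 998. This order depends on the scaling: with TMM over all 17 libraries miR-125b was highest, at 1084 to 1249, and overlapped LUC, at 1047 to 1163, while WT stayed lowest. On library totals, the ranges of miR-125b, shArid3a, sh-ctrl and the libraries labelled Arid3a overlapped from each group to the next. Reads of the near-identical copy Hmga1b cannot be fully separated from Hmga1, and Hmga1b held 7.51 to 14.4% as many counts in the 17 libraries. Another 2 genes, Gm49774 and AI413582, lie over Hmga1 on the other strand.

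Per kilobase of counted length, Hmga1 was the most abundant of the 7 genes in WT, at 277 ± 14.1 CPM per kb (SD, n = 3), followed by Hmga2 at 25.9 ± 3.16. Within the IGF2BP family, Igf2bp3 was at 10.4 ± 1.93 CPM per kb, Igf2bp2 at 8.11 ± 1.47 and Igf2bp1 at 2.26 ± 0.207. Lin28b was at 9.04 ± 1.60 CPM per kb and Lin28a at 4.29 ± 0.125. In LUC, Hmga1 was at 599 ± 34.5, Lin28b at 11.8 ± 1.58 and Igf2bp3 at 7.03 ± 0.339 CPM per kb, so each family was left with 1 member above 1 CPM.

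**Figure D2:**
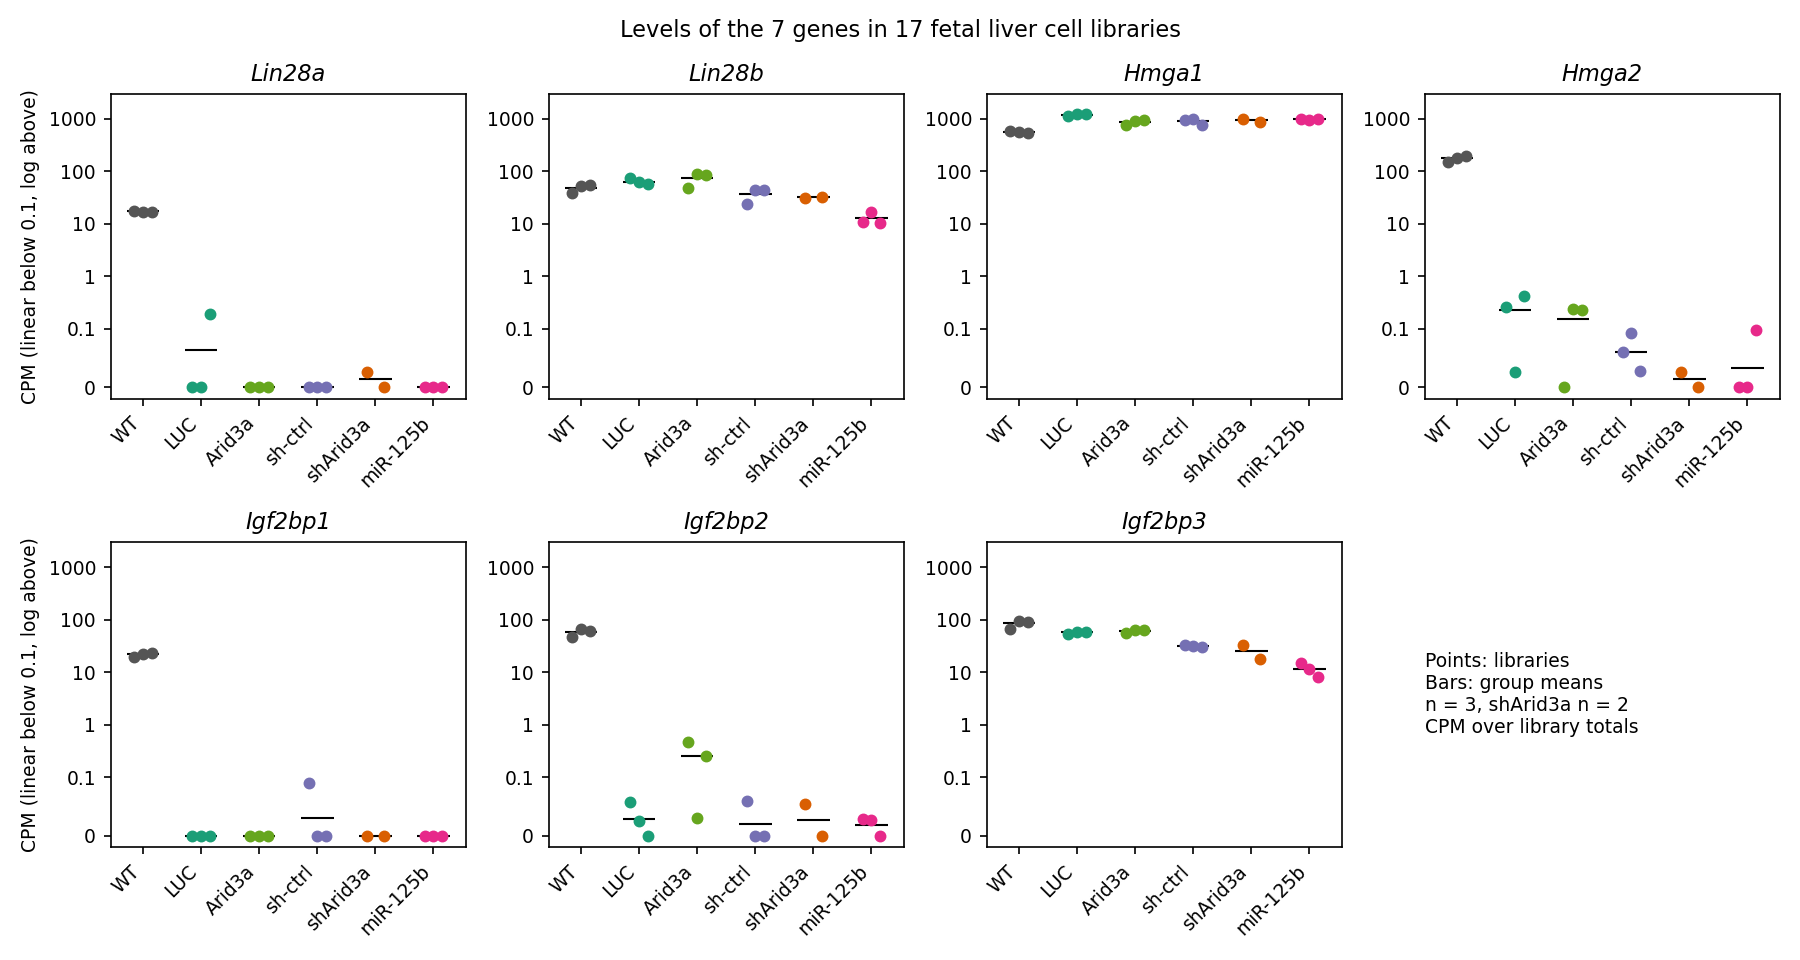
Level of each gene in each of the 17 libraries (points) with group means (bars); the y axis is CPM over library totals, on a log scale above 0.1 and linear below. Lin28a, Hmga2, Igf2bp1 and Igf2bp2 sit between 17 and 194 CPM in WT and under 1 CPM in every Gata1s library, while Lin28b, Igf2bp3 and Hmga1 are present in every group.

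Differences between Gata1s groups of the same table were tested with edgeR on all genes that passed its filter on low counts, which 3 of the 7 genes did (Lin28b, Igf2bp3 and Hmga1). A gene was called at a Benjamini-Hochberg adjusted p-value under 0.05. Levels of Lin28b, Igf2bp3 and Hmga1 in this section are CPM with TMM scaling. This scaling lets the libraries of 1 table be compared when a few abundant genes differ. Levels and sums of marker genes are CPM over library totals, without TMM, and fold changes are log2 values. The other 4 genes did not pass the filter. Fitted without it, none of these 4 was called in a comparison, and their lowest edgeR adjusted p-value was 0.314, for Igf2bp2 in the libraries labelled Arid3a against LUC. In that comparison Igf2bp1 had 0 counts in both groups and could not be tested. Lin28a had 0 counts in both groups of miR-125b against sh-ctrl, so no call was possible there.

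miR-125b against sh-ctrl asks how the microRNA changed the genes. Lin28b and Igf2bp3 fell and Hmga1 was not called, so 2 of the 3 tested genes were called lower, against 24.4% of all 14004 genes called in either direction and 12.2% called lower. Lin28b was at 12.1, 17 and 10.7 CPM with miR-125b and at 22.3, 41.8 and 38.3 in sh-ctrl. The groups did not overlap, as for 44.9% of all genes tested, and sh-ctrl replicate 1 was nearest to the miR-125b libraries. The log2 fold change of Lin28b was −1.37 (SE 0.26, 95% interval −1.93 to −0.80, edgeR adjusted p-value 0.00858). All 14 alternative fits called it, with values from −1.61 to −1.21.

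Igf2bp3, whose UTR holds a 7mer-m8 match to miR-125b and a let-7 8mer (shown above), was at 17, 11.4 and 8.32 CPM with miR-125b. In sh-ctrl it was at 31, 29.3 and 27 CPM, so the groups did not overlap and the controls were close together. Its log2 fold change was −1.25 (SE 0.28, 95% interval −1.87 to −0.63, edgeR adjusted p-value 0.0144). It was called in all 14 alternative fits, with values from −1.56 to −1.03 and adjusted p-values up to 0.0497.

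Hmga1 was at 1115, 966 and 1016 CPM with miR-125b and at 884, 939 and 655 in sh-ctrl. The groups did not overlap, but the log2 fold change of 0.32 (SE 0.16, 95% interval −0.03 to 0.67) was not called, with an edgeR adjusted p-value of 0.158. None of the 14 alternatives called it (0.13 to 0.41). Scaling by library totals alone moved the median of all genes from −0.03 to −0.22 and the split of calls from 1700 higher and 1714 lower to 890 and 2452. With it, Lin28b had −1.56, Igf2bp3 −1.45 and Hmga1 0.13.

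**Figure D3:**
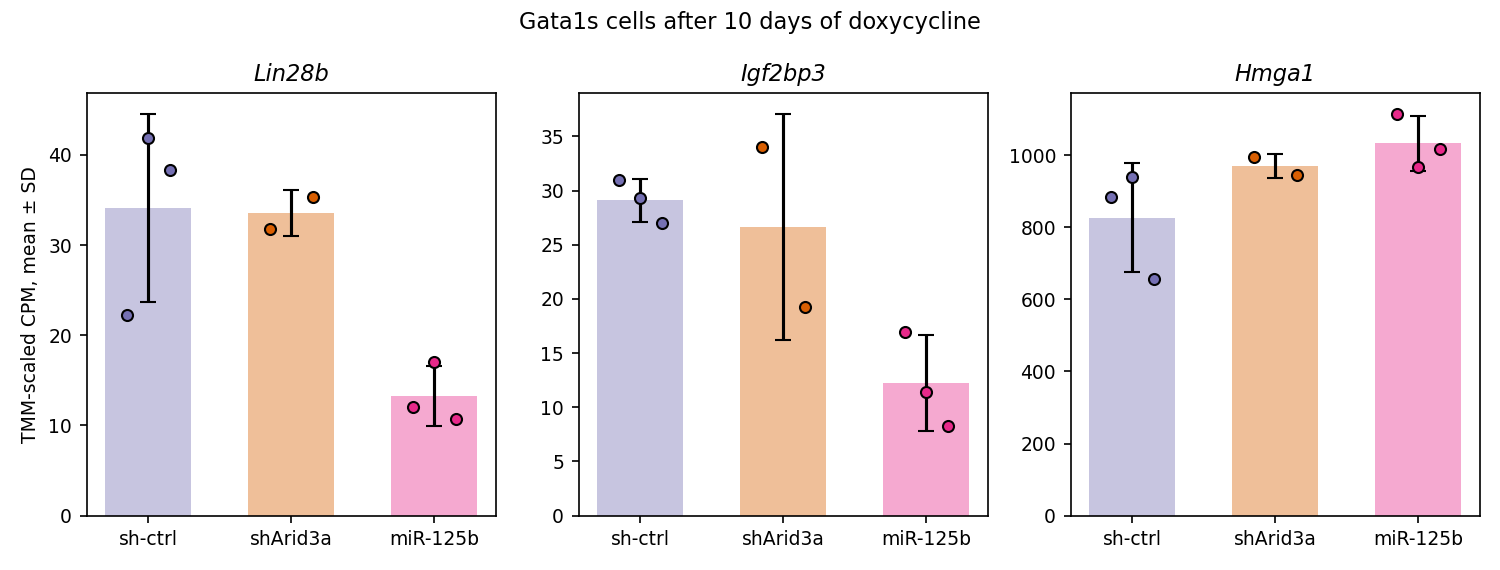
TMM-scaled CPM of Lin28b, Igf2bp3 and Hmga1 in Gata1s cells after 10 days of doxycycline; bars are means, error bars the SD and points the libraries (n = 3, shArid3a n = 2), and each y axis starts at 0. The miR-125b libraries are below all sh-ctrl and shArid3a libraries for Lin28b and Igf2bp3, and above all sh-ctrl libraries for Hmga1.

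Markers of other cell types moved in the same comparison. Over all genes, 12.1% were called higher and 12.2% lower. Of 10 myeloid and mast cell markers tested, 9 were positive, with 5 called higher with miR-125b and 0 lower. The list summed to 111 to 304 CPM against 81.8 to 151 in sh-ctrl, with overlap. Prtn3, the highest of the list in sh-ctrl, had a mean of 76.1 CPM there and 60.8 with miR-125b. Between the miR-125b libraries Mcpt8 ran from 0.87 to 39.1 CPM and Prss34 from 2.67 to 53.8. Of 10 megakaryocyte markers, 1 was called higher and 4 lower, with overlapping sums (2796 to 3514 and 3003 to 4703 CPM). Of 8 erythroid markers tested, 2 were called lower, and the summed level of the list was 264 to 314 CPM against 522 to 836. Of 12 proliferation markers 2 were called higher and 1 lower. Both hepatoblast markers that could be tested, Afp and Apoa2, were called higher, with Alb at or near 0 in both groups. Both were at low levels. Mean Afp was 0.72 CPM in sh-ctrl and 3.55 with miR-125b, and mean Apoa2 was 0.30 and 1.14 CPM. Of 4 endothelial and stromal markers, 0 were called. The part of these shifts in the fall of Lin28b and Igf2bp3 was not tested.

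miR-125b against shArid3a asks whether the microRNA differs from the hairpin, and does not use the sh-ctrl libraries as reference. Lin28b was lower with miR-125b, and it was the 1 gene of the 3 tested that was called, against 1.35% of all genes called and 0.686% called lower. It was at 31.8 and 35.3 CPM in shArid3a, with no overlap with miR-125b, as for 29.8% of all genes. The log2 fold change was −1.34 (SE 0.28, edgeR adjusted p-value 0.0462). This call was lost with library totals and without each one of the 5 libraries in turn (adjusted p-values 0.0653 to 0.193), while the value stayed between −1.55 and −1.20. In this comparison all 10 tested myeloid and mast cell markers were positive (median 2.33, 2 called higher), with sums of 111 to 304 CPM against 42.6 to 92.9 in shArid3a. Of 8 erythroid markers 7 were negative and 0 called, with sums of 264 to 314 against 428 to 514 CPM. Of 10 megakaryocyte markers 1 was called higher. The part of these markers in the difference was not tested.

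Igf2bp3 was at 34.0 and 19.3 CPM in shArid3a, also above every miR-125b library. Its log2 fold change of −1.12 (SE 0.30, 95% interval −1.80 to −0.45) was not called in this comparison (edgeR adjusted p-value 0.11). It was −0.66 without shArid3a replicate 1, and 4 of 13 alternatives called it, among them DESeq2 (adjusted p-value 0.0149), which called 5.22% of all genes. Hmga1 had 0.09 (SE 0.18, 95% interval −0.30 to 0.48, edgeR adjusted p-value 0.876).

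shArid3a against sh-ctrl asks what the hairpin against Arid3a changed. Of the 3 tested genes 0 were called by edgeR or DESeq2, against 0.0857% of all genes called by edgeR (12 genes) and 11.5% by DESeq2. An unadjusted edgeR p-value under 0.05 was reached by 0 of the 3 and by 3616 of all 14004 genes. Lin28b had a log2 fold change of −0.03 (SE 0.28, 95% interval −0.64 to 0.59, edgeR adjusted p-value 0.966), with both shArid3a libraries inside the sh-ctrl range. Igf2bp3 had −0.13 (SE 0.31, 95% interval −0.81 to 0.55, edgeR adjusted p-value 0.822), with 1 shArid3a library above and 1 below all sh-ctrl libraries. Hmga1 had 0.23 (SE 0.18, 95% interval −0.16 to 0.62, edgeR adjusted p-value 0.431). Its groups did not overlap, as for 43.9% of all genes tested. The intervals leave room for changes in either direction, so equality with the control is not shown. Both comparisons with sh-ctrl share the same 3 control libraries.

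The libraries labelled Arid3a against LUC compare the group labelled with the Arid3a transgene to its control after 48 h. As given above, Arid3a itself showed no rise over LUC beyond the spread. These counts therefore do not show that the transgene was expressed. Of the 3 tested genes 0 were called by edgeR, as was 0% of all 13495 genes, of which 2885 had an unadjusted p-value under 0.05. DESeq2 called 1 of the 3 (Hmga1) and 9.97% of all genes. Hmga1 was at 738, 909 and 935 CPM in the libraries labelled Arid3a and at 1129, 1254 and 1245 in LUC, without overlap, as for 27.6% of all genes. Its log2 fold change was −0.49 (SE 0.10, 95% interval −0.73 to −0.26, edgeR adjusted p-value 0.0889). DESeq2 gave −0.48 with an adjusted p-value of 0.000864, and without replicate 1 of the libraries labelled Arid3a edgeR gave −0.38 with 0.00233.

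Lin28b was at 47.4, 86.4 and 82.1 CPM in the libraries labelled Arid3a and at 74.0, 62.1 and 57.0 in LUC. Replicate 1 of the former lay below LUC and the other 2 above it. The log2 fold change was 0.16 (SE 0.22, 95% interval −0.36 to 0.68, edgeR adjusted p-value 0.711), and without that replicate it was 0.40 and called (0.0233). Igf2bp3 had 0.05 (SE 0.08, 95% interval −0.13 to 0.23, edgeR adjusted p-value 0.735), with overlapping groups.

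**Figure D4:**
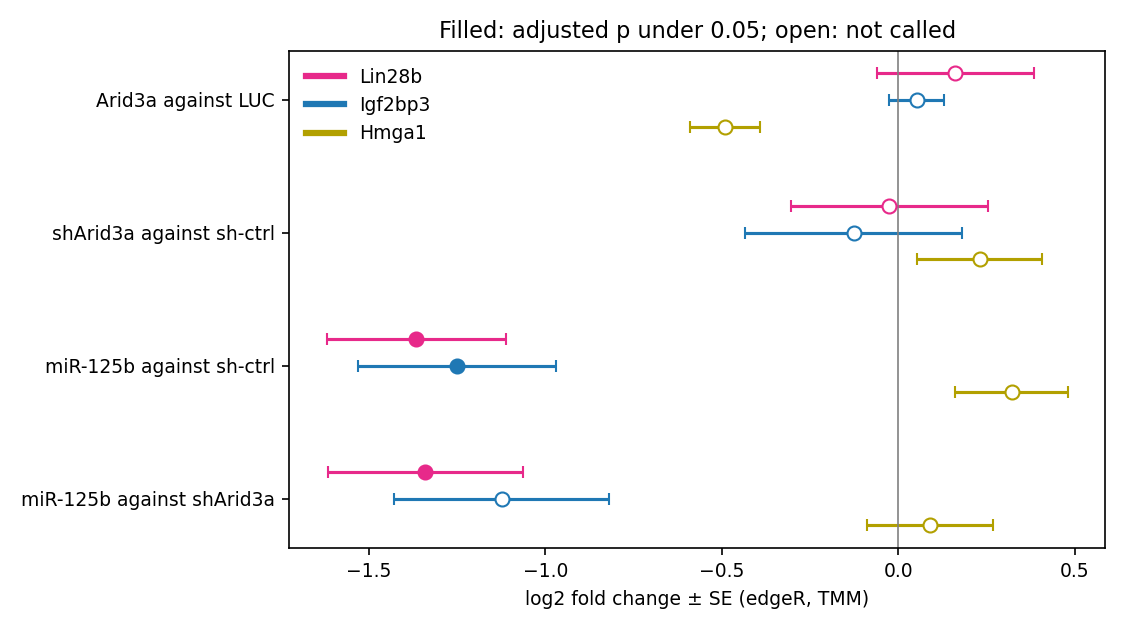
Log2 fold changes (x axis, edgeR) with standard errors of Lin28b, Igf2bp3 and Hmga1 in the 4 comparisons; filled points are called at an adjusted p-value under 0.05. Lin28b and Igf2bp3 are at −1.37 and −1.25 in miR-125b against sh-ctrl and near 0 in shArid3a against sh-ctrl.

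Genes of the surrounding pathway were read from lists of general knowledge in miR-125b against sh-ctrl. Of 15 tested genes of let-7 maturation and LIN28 partners, 1 was called higher and 3 lower, with a median log2 fold change of −0.18. Over all genes the median was −0.03, with 12.1% called higher and 12.2% lower. Tut7, a terminal uridylyl transferase that tags let-7 precursors bound by LIN28, fell by 1.24 on the log2 scale (SE 0.25, edgeR adjusted p-value 0.0104). Trim25, a ubiquitin ligase that assists this tagging, fell by 0.53 (edgeR adjusted p-value 0.0142). Dgcr8, the partner of Drosha in the first cut of microRNA precursors, fell by 0.50 (edgeR adjusted p-value 0.0364). Tarbp2, a partner of Dicer, rose by 0.87 (edgeR adjusted p-value 0.00681).

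Of 28 tested let-7 targets other than the 7 genes, 1 was called higher and 8 lower, with a median of −0.22. Arid3b, a relative of Arid3a, fell by 1.93 (SE 0.24, edgeR adjusted p-value 0.00305), and the cell cycle factor E2f2 fell by 1.88 (SE 0.24, edgeR adjusted p-value 0.00332). Tgfbr1, a TGF-beta receptor, fell by 1.00 (edgeR adjusted p-value 0.00648). The GTPase gene Hras rose by 0.97 (edgeR adjusted p-value 0.00643). Arid3b has 5 let-7 and 3 miR-125b matches in its UTR, and it stands in both lists of targets.

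**Figure D5:**
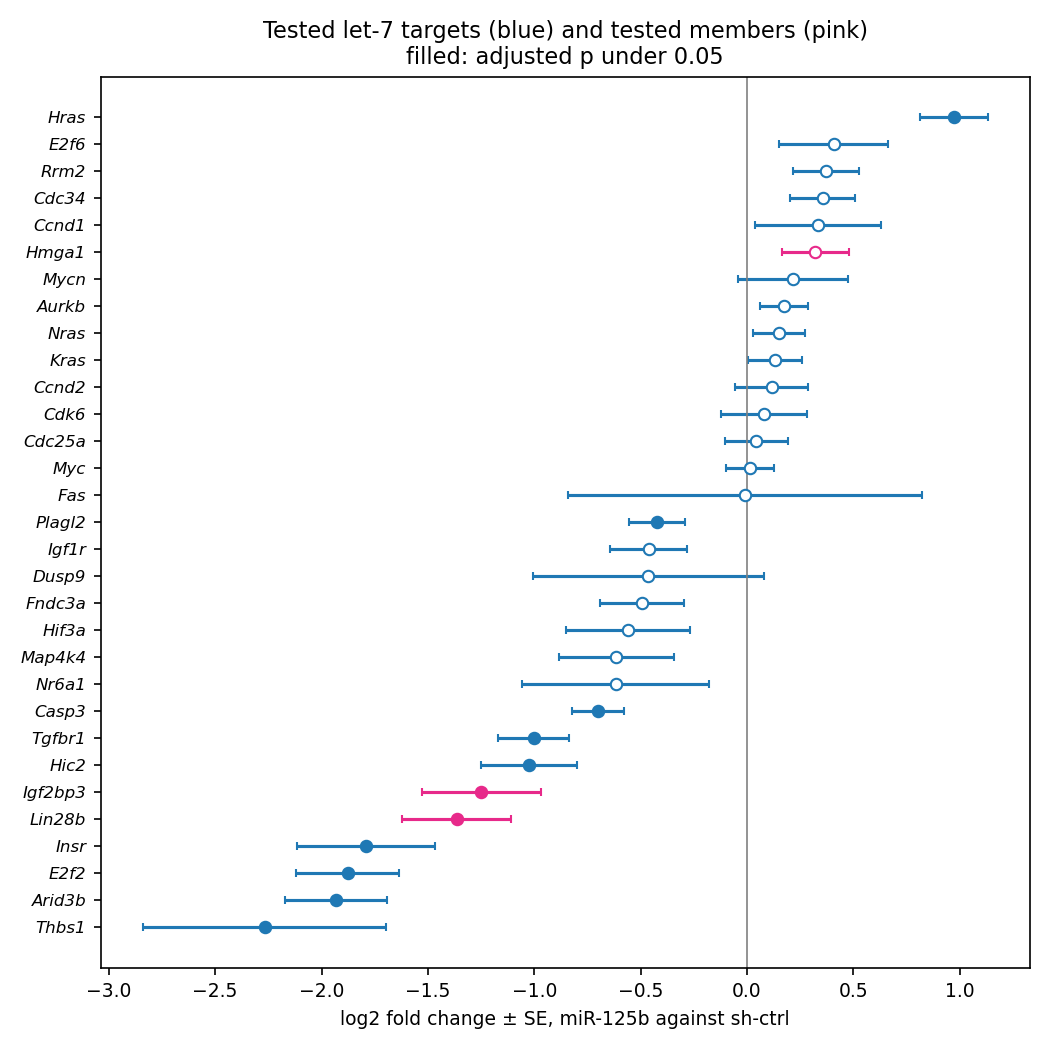
Log2 fold changes (x axis, with standard errors) of the 28 tested let-7 targets (blue) and of Lin28b, Igf2bp3 and Hmga1 (pink) in miR-125b against sh-ctrl; filled points are called. The called targets are 8 lower and 1 higher (Hras), and Lin28b and Igf2bp3 lie among the lower ones.

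Of 18 tested genes reported as miR-125b targets, 2 were called higher and 8 lower, with a median of −0.26. Arid3a fell by 2.56 (SE 0.18, edgeR adjusted p-value 0.000282), and its UTR held 7 miR-125b matches, 2 of them 8mers. The transcription factor Klf13 fell by 1.56 and Tet2, a DNA demethylase of blood cells, by 1.41 (edgeR adjusted p-values 0.00158 and 0.00937). These lists were read in the other comparisons too. With shArid3a against sh-ctrl, 1 gene in the 4 lists was called, the hairpin's own target Arid3a. In miR-125b against shArid3a, 1 let-7 target was called higher (Ccnd1, 2.59) and 2 lower (Arid3b, −1.28, and E2f2, −1.98), with 0 of the 15 let-7 maturation genes. Of the 18 reported miR-125b targets 1 was called higher (Ets1) and 3 lower (Arid3a, Arid3b and Klf13) there, with a median of −0.17. In the libraries labelled Arid3a against LUC 0 were called in any of the 4 lists by edgeR.

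Some fetal growth and imprinted genes showed the same split between WT and Gata1s cells as Hmga2 and Igf2bp1. Of 15 listed, 11 were at 1 CPM or more in WT, and 6 of those (Dlk1, H19, Igf2, Mest, Ndn and Peg3) were under 1 CPM in every Gata1s group, against 10.6% of all genes. The other 5 (Bcl11a, Cdkn1c, Grb10, Igf2r and Plag1) reached 1 CPM in at least 1 Gata1s group. Igf2, the growth factor whose mRNA gave the IGF2BP family its name, was at 5.35 CPM in WT, with 3 counts in the libraries labelled Arid3a and 0 in the other Gata1s groups. H19, the imprinted RNA beside Igf2, was at 59.6 CPM in WT and at most 0.04 in a Gata1s group mean. The sum of the hepatoblast markers, 1 of which is Dlk1, was 14.9 to 23.5 CPM in WT and 0.813 to 5.65 elsewhere. Dlk1 alone was at 8.74 to 14.6 CPM in WT, so the sum there is mostly that gene. The part of hepatoblast cells in these levels was not tested. Of the lists of let-7 maturation genes and let-7 targets, 0 of 15 and 0 of 28 genes at 1 CPM in WT showed this split.

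In miR-125b against sh-ctrl 6 of the fetal genes could be tested, and 3 were called lower and 0 higher. Igf2r, a receptor that clears IGF2, fell by 2.05 (SE 0.28, edgeR adjusted p-value 0.00431). Grb10, an imprinted adaptor that dampens insulin signals, fell by 1.60 and Plag1, a zinc finger activator of Igf2, by 2.56 (edgeR adjusted p-values 0.00621 and 0.0153). Mest had −2.40 and was not called (edgeR adjusted p-value 0.0767). In miR-125b against shArid3a, Grb10 had −1.56 and was called (edgeR adjusted p-value 0.0286).

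Likeness of pattern was measured as Pearson's r of log2(CPM + 1) over the 14 Gata1s libraries, centred on the mean of each table, among 8802 genes. Lin28b was most like Zbed4 (0.956), Apmap (0.951) and Mtf2 (0.946). Igf2bp3 was most like Cblb (0.973), Bap1 (0.964) and Arid3b (0.957). For Hmga1 the closest were Lta4h (0.837), Nt5m (0.829) and Spryd4 (0.829). Lin28b and Igf2bp3 had an r of 0.774 with each other, and Hmga1 had −0.23 with Lin28b and −0.15 with Igf2bp3. These values describe libraries that share depth, scaling and treatment.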

How the data were processed

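The authors deposited 3 tables of raw counts, in which each value is a whole number of reads assigned to a gene. Per the submitters' processing notes, the tools were fastp, HISAT2 2.0.5 and featureCounts on mm10; how strand was used is not given in the sources used here. Tables were joined by Ensembl identifier, and CPM were computed over library totals. Members and lists were chosen with earlier results of these data known.

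Tests used edgeR 4.0.16 in R 4.3.3 (TMM, filterByExpr, glmQLFit and glmQLFTest, 1 term per group, Benjamini-Hochberg over all genes tested, threshold 0.05), 1 fit per table. The script was tested on simulated counts. Intervals on fold changes are unadjusted 95% intervals. No test crossed tables. Ratios of WT to a group pool the counts, with exact intervals. Alternatives were DESeq2 1.42.0, other scalings, no filter, a replicate block, fits without each library, without ribosomal RNA-like genes or with only the groups compared, and, added after seeing the data, Hmga1 with Hmga1b summed. All 17 libraries were used, and no library pair was identical.

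Named genes were the 7 members, Arid3a, Gata1 and Igf2, the 4 genes per list with the smallest p in miR-125b against sh-ctrl, and the 3 most alike genes. In miR-125b against sh-ctrl, deviations of same-numbered libraries correlated at r = 0.427, 0.151 and 0.294. Those of differently numbered libraries correlated at −0.364 to 0.205, the highest being miR-125b replicate 2 with sh-ctrl replicate 3. This check cannot show that the numbers pair the libraries, and the labels do not say so. Gene positions and UTRs are from GENCODE M21.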

Additional observations from a re-analysis of the deposited data

How the results depend on the processing

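Of 159 alternative values of the log2 fold changes of Lin28b, Igf2bp3 and Hmga1, 141 kept their direction and their side of the threshold. In the libraries labelled Arid3a against LUC, 0 members were called, 1 with DESeq2, and 0 to 2 when each library was left out in turn, with 2 only without Arid3a replicate 1, where 3198 genes were called in all. In miR-125b against shArid3a, 1 was called (Lin28b), 2 with DESeq2, 2 with no filter, 2 with the replicate block and 0 with library totals. When each library was left out, 0 to 1 were called. That 1 was Igf2bp3, without miR-125b replicate 1, and Lin28b was called in none of these fits. The log2 fold change of Lin28b in shArid3a against sh-ctrl turned to 0.19 with the replicate block and ran from −0.28 to 0.12 without single libraries. That of Igf2bp3 ran from −0.59 to 0.23, the last without shArid3a replicate 3. The cause was not tested.

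In miR-125b against sh-ctrl, the fit with the replicate block changed no call of the 3 genes (Lin28b −1.35, Igf2bp3 −1.31). In the other comparisons, same-numbered deviations correlated at 0.158, 0.365 and 0.0084 for the libraries labelled Arid3a and LUC. They correlated at 0.431 and 0.161 for shArid3a and sh-ctrl, and at 0.237 and 0.20 for miR-125b and shArid3a. Differently numbered libraries reached 0.200 (Arid3a 1 with LUC 3), 0.364 (shArid3a 3 with sh-ctrl 2) and 0.124 (miR-125b 2 with shArid3a 3). The 2 shArid3a libraries, centred on their mean, give mirror values (0.431 and −0.431 with sh-ctrl 1). These correlations therefore cannot show that the numbers pair the libraries. Counts over all genes moved further. In the libraries labelled Arid3a against LUC, edgeR called 0, DESeq2 1342 and edgeR with no filter 71. In shArid3a against sh-ctrl, 12 became 1600 with DESeq2, 1237 with no filter, 20 with library totals, 0 without ribosomal RNA-like genes (3569 at an unadjusted p-value under 0.05) and 2 to 11 without single libraries. In miR-125b against sh-ctrl, 3414 became 4367 with DESeq2, 3988 with no filter, 3687 with the replicate block and 734 (without sh-ctrl replicate 3) to 2872 without single libraries. In miR-125b against shArid3a, 189 became 729 with DESeq2, 715 with no filter and 12 (without shArid3a replicate 1) to 329 without single libraries. The count of 5 members with the highest mean in WT was the same in all 18 alternatives. For Lin28a, Hmga2, Igf2bp1 and Igf2bp2, at or near 0 outside WT, leaving out 1 library could not change it. With 3 libraries a group or fewer, falls smaller than those of Lin28b and Igf2bp3 may go uncalled.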

Other observations

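The mature microRNAs were not measured. Of the rows of 12 let-7 and miR-98 hairpins, 8 were at 0 in all 17 libraries, and the highest held 11 counts in a library. The 3 rows of miR-125 hairpins were at 0 in all 17, miR-125b libraries included. Mir99ahg, annotated as a host of let-7c and miR-99a, had 1 count in WT and 0 elsewhere.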
